A study of Mus musculus with 6 samples.

Results

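Heat shock proteins and DnaJ co-chaperones were followed in gastrocnemius, a mixed hindlimb muscle, of male mice aged 8 weeks. The members were all genes with values whose symbol began with Hspa, Hspb, Hspd, Hspe, Hsph, Hsp90, Dnaja, Dnajb or Dnajc and whose raw count averaged at least 10 over the 6 libraries. This gave 65 genes of the 17034 with values in all libraries. The 3 TRa_mKO mice carried floxed copies of Thra (Thrafl/fl), the gene of thyroid hormone receptor alpha, and Cre recombinase driven by Myf5, a gene of early myogenic cells, in the Tg(Myf5-cre)1Jme line. This Cre acts from embryonic muscle formation onward, and vessels, nerves and blood were not separated from the fibres of the sample. The 3 WT mice were littermates with the same floxed copies and no Cre. Both genotypes were thus Thrafl/fl, none received a drug or a special diet, and all libraries belonged to batch 1. Expression was measured as polyadenylated RNA counts, and p-values measure the spread between the 3 libraries of a genotype.

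Of 74 rows with these prefixes, 70 had values and 4 had none. The rule left out 5 genes, Dnajb13, Hspb9, Dnajb3, Dnajb7 and Dnajc6, whose raw counts averaged 0.5 to 2.17, while the lowest members, Dnajc24 and Hspb11, averaged 58.2 and 65.8. Library totals lay between 12390527 and 14488500 counts, of which the members took 0.712% to 0.863%. All 65 members passed the filter on low counts and were tested. Thra itself measured 129, 118 and 101 CPM (counts scaled to the effective library size) in the libraries labelled TRa_mKO and 78.8, 92.8 and 96.8 CPM in WT (log2 fold change 0.37, edgeR adjusted p = 0.117). A count over all exons, in a gene that overlaps Nr1d1 and shares reads, checks neither the deletion nor the labels, so the directions below depend on the genotypes as labelled. Summed skeletal muscle markers (Acta1, Ckm, Des, Ttn and Mb) reached 69596 to 78555 CPM in TRa_mKO and 51605 to 62015 CPM in WT. In bulk muscle, fewer cells of a type and less RNA per cell cannot be told apart.

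Chaperones of the HSP70 family bind unfolded stretches of client proteins and release them as they split ATP. DnaJ proteins deliver clients and switch on that ATPase through their J domain, HSP110 proteins exchange the nucleotide, and HSP90 acts later on a chosen set of clients, among them steroid receptors, kinases and muscle myosin. Small heat shock proteins hold partly unfolded proteins without ATP and are abundant at the Z-disc and on desmin and filamin in striated muscle. Heat shock factor 1 switches on many of these genes by binding repeats of GAA and its complement TTC in their promoters.

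The members were set out first by their level, as CPM per kb of the longest protein-coding GENCODE transcript, averaged over the 6 libraries. The highest was Hspb6, also called HSP20, at 522 ± 90.8 CPM per kb (SD, n = 6), and Hspa8, the constitutive cytosolic HSP70, followed at 431 ± 47.9 CPM per kb. These neighbours lay within their spread of each other. Hsp90ab1, the constitutive cytosolic HSP90, stood at 344 ± 17.6 CPM per kb, and Hspb8, which works with Bag3 in the autophagic removal of damaged filamin, at 311 ± 32 CPM per kb. Hspb1, the mouse HSP27, measured 240 ± 38.8 CPM per kb. Hspa9, the HSP70 of the mitochondrial matrix, and Hspb2, a muscle small heat shock protein, were the other 2 of the 7 members above 100 CPM per kb. The median member stood at 15.3 CPM per kb and 23 members lay under 10 CPM per kb. The stress-inducible Hspa1b was near the bottom, with Hspa4l and Dnajb14 (1.03 CPM per kb) the lowest. Hspa4l and Dnajb14 also had the longest transcripts of the members (9479 and 9477 bases). Their rank thus depends on the transcript chosen, and which transcripts the muscle made was not tested.

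**Figure D1:**
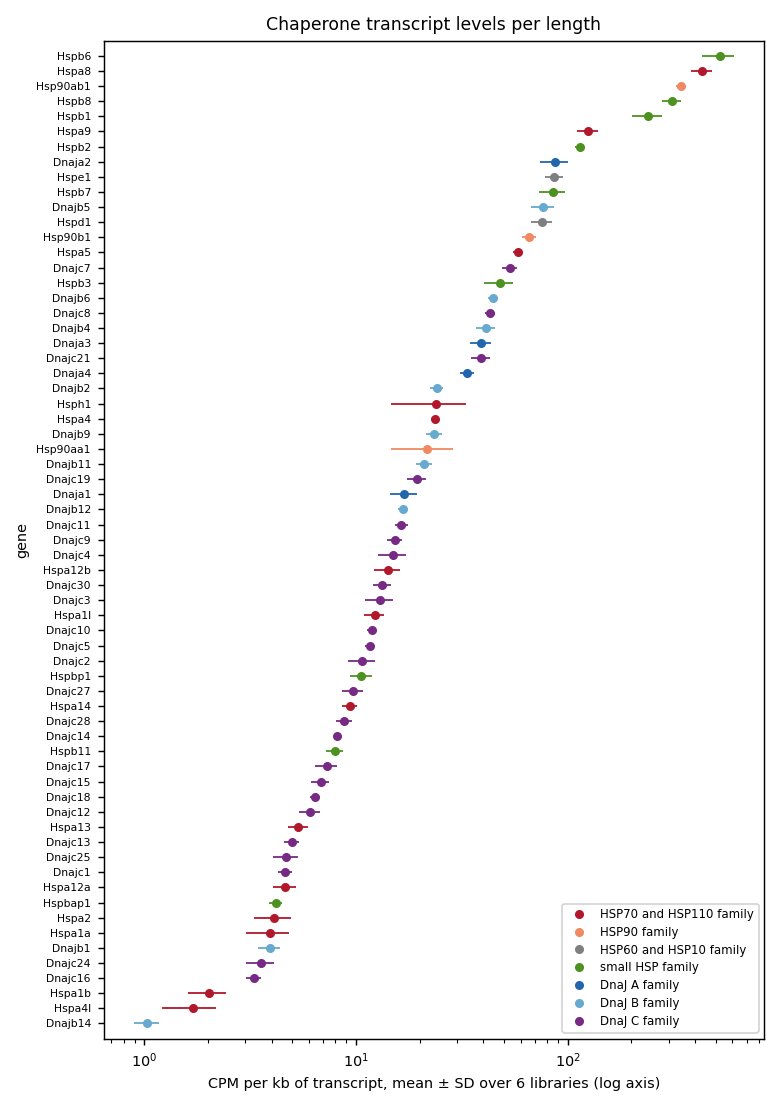
Mean transcript level of the 65 members per kb of transcript, with SD over the 6 libraries, on a logarithmic axis, coloured by family. Levels ran from 1.03 CPM per kb for Dnajb14 to 522 CPM per kb for Hspb6, and Hsph1 and Hsp90aa1 had wide bars for their level.

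The comparison of the genotypes asks whether the chaperone system differs in muscle labelled TRa_mKO. Few members differed. Dnajc3 and Dnajc2 were lower in TRa_mKO and passed the test, 2 of 65 members (3.08%), against 4.17% of all 13118 genes tested, or 1.65% counting those lower. No member was higher by edgeR, against 2.52% of genes, although 6 were higher and 6 lower at an unadjusted p under 0.05 (18.5% of members, against 17.9% of genes). DESeq2 called 3 members lower and 0 higher (5.81% of genes in either direction), and limma-voom called 0 either way (3.87% of genes). The median log2 fold change of TRa_mKO over WT was -0.04 over the members, with 26 above 0 and 39 below. Single members ran from -0.70 for Hsph1 to 0.49 for Hspa2. In 49 members (75.4%) the whole 95% confidence interval of the log2 fold change lay within 0.5 of 0, a 1.41-fold difference, against 57.6% of genes. The width of an interval also depends on the count of a gene, and members and genes were not matched for it. All TRa_mKO libraries lay above all WT libraries for 7 members (13.2% of genes did so) and below them for 8 (10.1% of genes).

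**Figure D2:**
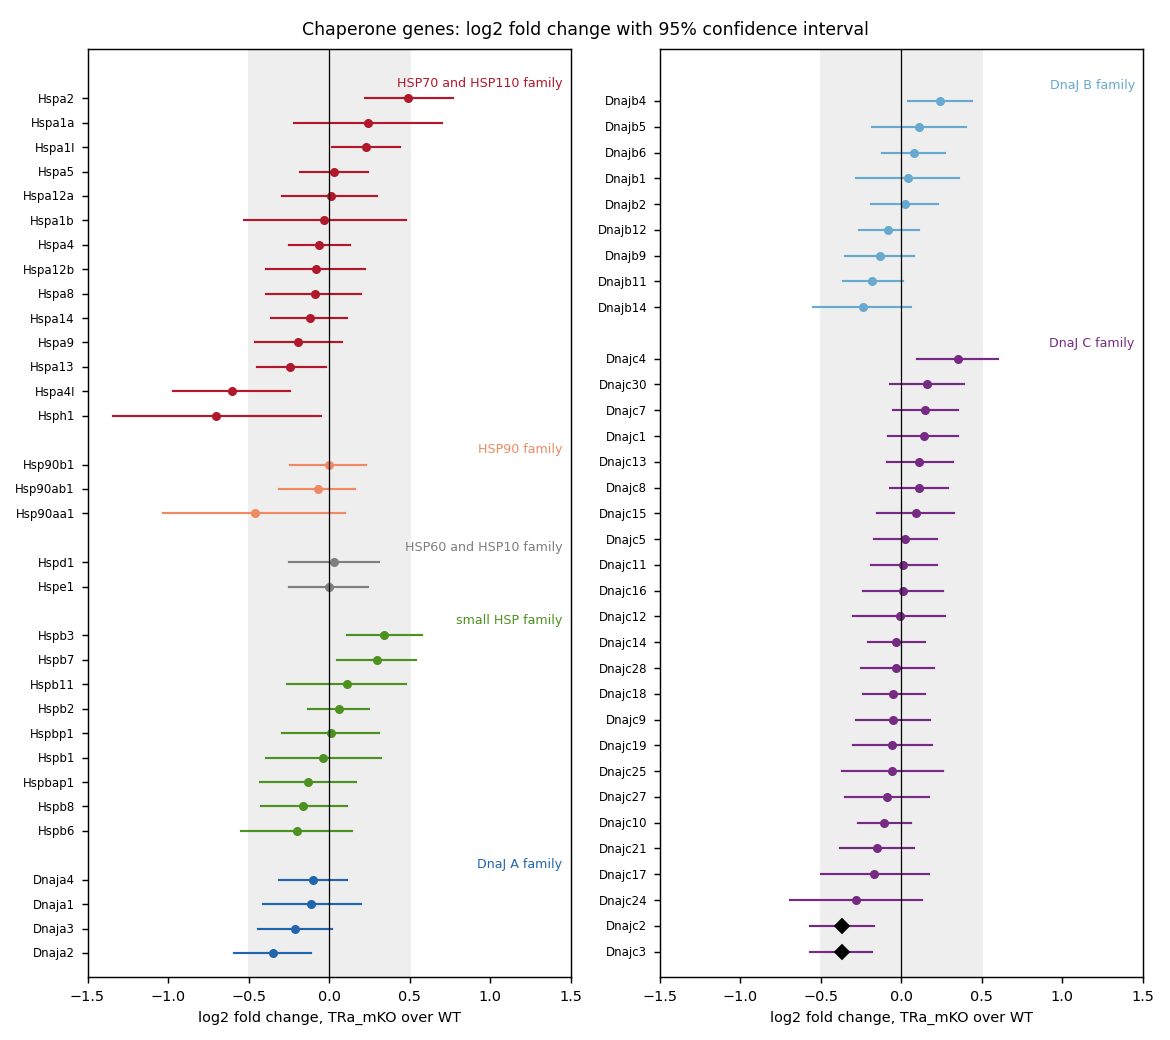
Log2 fold change of TRa_mKO over WT for each member with its 95% confidence interval, by family, from 3 libraries per genotype. Black diamonds mark the 2 members that passed, Dnajc3 and Dnajc2, and the grey band spans -0.5 to 0.5, which holds the whole interval of 49 members.

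Both members that passed were of the large DnaJ C family, where 0 of 24 members were higher and 2 lower. Dnajc3 (gene ID 100037258), also called P58IPK, is a co-chaperone of the HSP70 BiP in the lumen of the endoplasmic reticulum. It measured 62.1, 56.7 and 55.8 CPM in TRa_mKO and 69.6, 78.2 and 78.1 CPM in WT. All TRa_mKO libraries lay below the lowest WT library, and Dnajc3 fell to 58.2 ± 3.41 CPM in TRa_mKO, against 75.3 ± 4.94 CPM in WT (SD, n = 3 each). The log2 fold change was -0.37 (SE 0.09, interval -0.57 to -0.18, edgeR quasi-likelihood adjusted p = 0.0461), so that WT held 1.29-fold more. The call ended without TRa_mKO replicate 2 or 3, WT replicate 2 or 3, or the pair of libraries richest in haemoglobin (TRa_mKO replicate 3 and WT replicate 1), with adjusted p = 0.117 to 0.17, and with limma-voom (0.0505). The log2 fold change itself was -0.43 to -0.34 with 1 library left out and -0.40 without both haemoglobin-rich libraries.

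Dnajc2 (gene ID 22791) encodes the J protein that in human cells sits on the ribosome with HSPA14 and meets nascent chains. Its values were 23.8, 23.4 and 20.8 CPM in TRa_mKO and 29.4, 29.7 and 28.8 CPM in WT. The genotypes did not overlap, and the WT libraries spanned less than 1 CPM. Dnajc2 fell in TRa_mKO by 0.37 on the log2 scale (SE 0.09, interval -0.57 to -0.17, adjusted p = 0.0491), with WT 1.29-fold higher. Dnajc2 did not pass when any single library was left out (adjusted p = 0.0525 to 0.131), without both haemoglobin-rich libraries (0.247), with DESeq2 (0.0787) or with limma-voom (0.0524). Its log2 fold change was -0.41 to -0.31 with 1 library left out and -0.31 without both haemoglobin-rich libraries. Its ribosomal partner Hspa14 measured 15.1, 16 and 17.1 CPM in TRa_mKO and 17.2, 19 and 16.4 CPM in WT, with overlap. Markers of endothelial and satellite cells were read in the same libraries. Of 6 endothelial markers edgeR called 0, DESeq2 1 and limma-voom 0, and 4 were lower at an unadjusted p under 0.05. Their sum was 625 to 866 CPM in TRa_mKO and 857 to 1059 CPM in WT, overlapping, and none was at 0. Log2 fold changes ran from -0.63 for Kdr, a receptor of vascular endothelium (adjusted p = 0.0949), to 0.03 for Cldn5. Of 5 satellite cell markers Pax7 rose (log2 fold change 0.66, adjusted p = 0.0261), none was at 0, and the sum was 59.1 to 63.3 CPM in TRa_mKO and 47.8 to 54.3 CPM in WT. The part of either cell type in the values of Dnajc3 and Dnajc2 was not tested.

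No other DnaJ C member passed, and for 5 of the 24 the interval reached beyond 0.5 on the log2 scale. Dnajc4 measured 18.1, 16.9 and 19.2 CPM in TRa_mKO and 13.8, 15.8 and 12.9 CPM in WT, with no overlap (log2 fold change 0.35, interval 0.10 to 0.60, adjusted p = 0.128). Dnajc7, a co-chaperone that binds both HSP70 and HSP90, measured 142, 124 and 126 CPM in TRa_mKO and 119, 121 and 113 CPM in WT (log2 fold change 0.15, adjusted p = 0.428, shared reads). Dnajc5, the cysteine string protein of synaptic and secretory vesicles, measured 77 ± 5.47 CPM in TRa_mKO and 75.7 ± 2.55 CPM in WT, with an interval of -0.17 to 0.22. The family median was -0.03.

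DnaJ A proteins are the general J proteins of the cytosol, apart from mitochondrial Dnaja3, and all 4 had log2 fold changes below 0, from -0.35 to -0.10. Their summed level was 536, 484 and 501 CPM in TRa_mKO and 603, 605 and 584 CPM in WT, without overlap. Dnaja2, the most abundant of them per length (86.9 CPM per kb), carried most of this gap, at 246, 215 and 207 CPM in TRa_mKO and 261, 302 and 290 CPM in WT. Its log2 fold change of -0.35 (SE 0.11, interval -0.59 to -0.11) did not pass edgeR (adjusted p = 0.109) and passed DESeq2 (adjusted p = 0.0341). With 1 library left out the log2 fold change of Dnaja2 was -0.43 to -0.30, with an edgeR adjusted p of 0.0636 to 0.321. Dnaja3, which serves Hspa9 in the matrix, measured 110, 89.7 and 87.2 CPM in TRa_mKO and 111, 113 and 108 CPM in WT (adjusted p = 0.328). Dnaja1, a partner of Hspa8, overlapped between genotypes (91.2 ± 12.6 CPM in TRa_mKO and 98.3 ± 16.6 CPM in WT), as did Dnaja4 (97.2 ± 5.4 CPM in TRa_mKO and 104 ± 8.89 CPM in WT). EdgeR called 0 of the 4, with 1 at an unadjusted p under 0.05, DESeq2 1 and limma-voom 0.

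In the DnaJ B family 0 of 9 members passed edgeR, 1 had an unadjusted p under 0.05, and DESeq2 and limma-voom called 0. Dnajb4, whose loss causes a myopathy in humans, measured 116, 106 and 107 CPM in TRa_mKO and 88.8, 89.3 and 101 CPM in WT. Its TRa_mKO libraries all lay above the WT ones, yet the log2 fold change of 0.24 (SE 0.09) did not pass (adjusted p = 0.199), and the gene overlaps Fubp1. Dnajb6, mutated in a human limb-girdle muscular dystrophy, measured 133 ± 7.87 CPM in TRa_mKO and 126 ± 5.31 CPM in WT, with an interval of -0.12 to 0.27. Dnajb5, the most abundant member of the family per length, measured 263 ± 30.6 CPM in TRa_mKO and 244 ± 34.5 CPM in WT. Dnajb1, the stress-inducible partner of HSP70, measured 10.3, 11.9 and 13.5 CPM in TRa_mKO and 12.5, 9.84 and 12.3 CPM in WT, fully overlapping.

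The HSP70 and HSP110 family had 0 of 14 members past edgeR's threshold and the widest differences of all families. DESeq2 called 1, limma-voom 0, and 5 had an unadjusted p under 0.05, 2 higher and 3 lower (35.7%, against 17.9% of genes). Hspa2, an HSP70 best known from testis, measured 11.1, 12.4 and 12.9 CPM in TRa_mKO and 9.13, 8.75 and 7.99 CPM in WT. No library of one genotype reached the other, and the log2 fold change was 0.49 (SE 0.12, interval 0.22 to 0.77, adjusted p = 0.057). It passed without TRa_mKO replicate 1 (adjusted p = 0.0486) and lay between 0.0568 and 0.218 under the other alternatives. Hspa4l, an HSP110 protein, measured 14.6, 10.6 and 13.1 CPM in TRa_mKO and 23.7, 16.3 and 18.2 CPM in WT. All TRa_mKO libraries were the lower ones (log2 fold change -0.60, SE 0.16, interval -0.97 to -0.24). The adjusted p of 0.0768 became 0.0315 with DESeq2, 0.0469 without a filter on low counts and 0.0969 with limma-voom. Without WT replicate 1, its highest library, the log2 fold change was -0.44 (edgeR adjusted p = 0.206). Without both haemoglobin-rich libraries it was -0.45 (edgeR adjusted p = 0.284).

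Hsph1, also called HSP105 or HSP110, exchanges the nucleotide of HSP70 and had the widest spread of all members, 2.83-fold between its extreme libraries. It measured 89.6, 64.3 and 53.9 CPM in TRa_mKO and 153, 82.6 and 102 CPM in WT. WT replicate 1 stood far above the rest, and TRa_mKO replicate 1 lay between the other WT libraries. The log2 fold change of -0.70 (SE 0.27, interval -1.34 to -0.05) did not pass (adjusted p = 0.242). Without WT replicate 1 it was -0.42, and without both haemoglobin-rich libraries -0.26.

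The inducible pair Hspa1a and Hspa1b, near-identical neighbours that share reads, was scarce. Hspa1a measured 10.6, 11.7 and 15.5 CPM in TRa_mKO and 14, 8.91 and 9.11 CPM in WT, and Hspa1b 4.39, 5.33 and 7.06 CPM in TRa_mKO and 6.59, 6.35 and 4.29 CPM in WT. In both the genotypes overlapped, and the intervals (-0.22 to 0.70 and -0.53 to 0.48) left room for differences beyond 1.41-fold. Hspa1l, the third gene of that cluster, measured 36, 29.9 and 32.2 CPM in TRa_mKO and 29, 27.2 and 27.6 CPM in WT, apart (log2 fold change 0.23, adjusted p = 0.233, shared reads). Hspa8 measured 1070, 907 and 1022 CPM in TRa_mKO and 1220, 1053 and 919 CPM in WT, overlapping, with an interval of -0.39 to 0.20.

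Chaperones of the endoplasmic reticulum and of mitochondria were grouped after their values were seen. Dnajb12 and Dnajb14, also found in the reticulum membrane, were not included, nor were Dnajc14, Dnajc16, Dnajc18 and Dnajc25. All of these overlapped between genotypes. Of the 8 reticulum members (Hspa5, Hspa13, Hsp90b1, Dnajb9, Dnajb11, Dnajc1, Dnajc3 and Dnajc10), Dnajc3 passed and 4 (50%, against 10.1% of all genes) had all TRa_mKO libraries below all WT libraries, with 0 the other way. This share describes a group formed with its values in view, depends on the members left out, and is no test against all genes. Hspa5, which encodes BiP, measured 216 ± 12.8 CPM in TRa_mKO and 212 ± 9.08 CPM in WT, with an interval of -0.18 to 0.24 (shared reads). Hsp90b1, the reticulum's HSP90, measured 186 ± 16 CPM in TRa_mKO and 186 ± 15 CPM in WT. Dnajb11, a BiP co-chaperone, measured 52.7, 46.1 and 50.2 CPM in TRa_mKO and 57.3, 57.9 and 53.2 CPM in WT, apart yet not past the threshold (log2 fold change -0.18, adjusted p = 0.31). Hspa13, an atypical HSP70 of microsomes, measured 20.8 ± 0.912 CPM in TRa_mKO and 24.5 ± 2.03 CPM in WT (adjusted p = 0.232), and Dnajb9, another BiP co-chaperone, 55.1 ± 4.12 CPM in TRa_mKO and 60.4 ± 5.52 CPM in WT.

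The 8 members grouped as mitochondrial were Hspa9, Hspd1, Hspe1, Dnaja3, Dnajc11, Dnajc15, Dnajc19 and Dnajc30. All 8 had intervals within 0.5 of 0. EdgeR, DESeq2 and limma-voom called 0 of the 8, with 0 at an unadjusted p under 0.05. This group, too, was formed with its values in view, and it left out Dnajc4 and Dnajc28. Dnajc4 had an interval of 0.10 to 0.60 (edgeR unadjusted p = 0.0114), so these statements depend on the members chosen. Hspa9 measured 411, 325 and 330 CPM in TRa_mKO and 437, 374 and 403 CPM in WT (log2 fold change -0.19, adjusted p = 0.461). Hspd1 and Hspe1 encode HSP60 and HSP10, the folding chamber of the matrix and its lid, and lie head to head. Hspd1 measured 213, 161 and 181 CPM in TRa_mKO and 206, 168 and 171 CPM in WT, and Hspe1 69.8, 63.8 and 66.8 CPM in TRa_mKO and 76.1, 67.8 and 57.1 CPM in WT. Both overlapped between genotypes, with intervals of -0.25 to 0.31 and -0.25 to 0.24.

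Among the cytosolic HSP90 genes, the inducible Hsp90aa1 measured 57.8, 55.1 and 67 CPM in TRa_mKO and 118, 65.8 and 64.2 CPM in WT. Only WT replicate 1 stood out, and the log2 fold change of -0.46 (SE 0.24, adjusted p = 0.374) became -0.12 without it. Hsp90ab1 measured 875, 830 and 829 CPM in TRa_mKO and 946, 842 and 878 CPM in WT (interval -0.31 to 0.16). EdgeR, DESeq2 and limma-voom called 0 of the 3 HSP90 genes, with 0 at an unadjusted p under 0.05.

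The prefix Hspb took in 9 genes, of which Hspbap1, Hspbp1 and Hspb11 are not classical small heat shock proteins. EdgeR, DESeq2 and limma-voom called 0 of the 9, and 2 had an unadjusted p under 0.05, both higher (22.2%, against 17.9% of genes). Hspb3, a muscle protein that pairs with Hspb2, measured 43.1, 41.1 and 41 CPM in TRa_mKO and 29.8, 38.5 and 30.5 CPM in WT. All TRa_mKO libraries were the higher ones (log2 fold change 0.34, SE 0.11, interval 0.11 to 0.58, adjusted p = 0.114). Hspb3 passed without WT replicate 2 (adjusted p = 0.0354) and under no other alternative. With 1 library left out its log2 fold change was 0.27 to 0.47, and the edgeR adjusted p reached 0.319. Hspb7, the cardiovascular small heat shock protein, measured 244, 240 and 295 CPM in TRa_mKO and 224, 211 and 200 CPM in WT, again apart (log2 fold change 0.30, SE 0.11, adjusted p = 0.187).

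The 3 most abundant Hspb genes per length did not share that order. Hspb6 measured 690, 691 and 604 CPM in TRa_mKO and 946, 722 and 618 CPM in WT, Hspb8 596, 548 and 461 CPM in TRa_mKO and 617, 610 and 563 CPM in WT, and Hspb1 234, 225 and 203 CPM in TRa_mKO and 285, 217 and 177 CPM in WT. Each overlapped between genotypes (adjusted p = 0.544, 0.541 and 0.943). Cryab, the alpha-B crystallin that the prefix does not catch, measured 1248, 1291 and 1363 CPM in TRa_mKO and 1509, 1026 and 845 CPM in WT (shared reads), a gene named after its values were seen. Slow-fibre markers moved with genotype in the same libraries: 4 of 8 rose and 0 fell by edgeR, all 8 had the genotypes apart, none was at 0, and their sum was 4584 to 6653 CPM in TRa_mKO and 1106 to 2517 CPM in WT. Their part in the values of the small heat shock proteins was not tested.

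**Figure D3:**
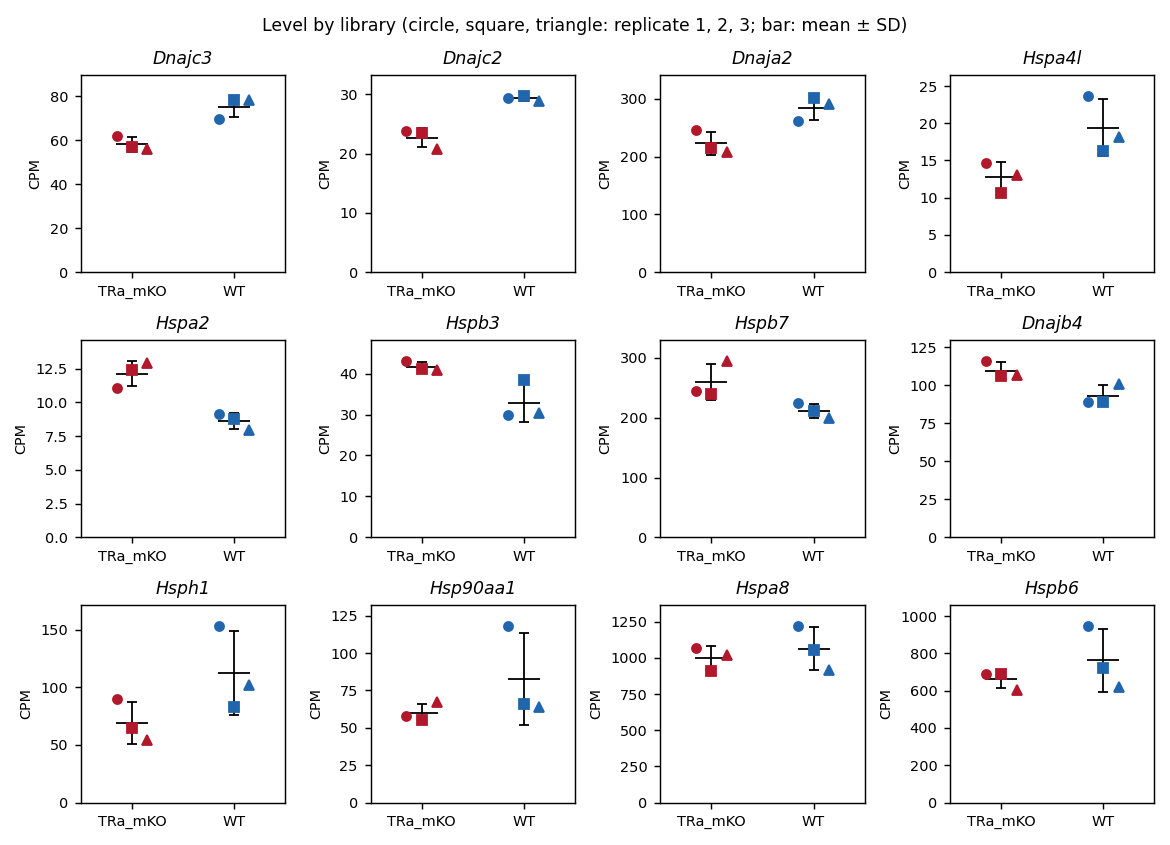
CPM of 12 members in each library, TRa_mKO in red and WT in blue, with mean and SD of 3 libraries, on axes from 0. Dnajc3, Dnajc2, Dnaja2, Hspa4l, Hspa2, Hspb3, Hspb7 and Dnajb4 have the genotypes apart, whereas in Hsph1, Hsp90aa1, Hspa8 and Hspb6 WT replicate 1 is the highest library.

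The members also varied between libraries of a genotype. WT replicate 1 was the highest of the 6 libraries for 17 members (26.2%), against 15.6% of genes tested, and TRa_mKO replicate 3 the lowest for 22 (33.8%), against 16.1% of genes. WT replicate 1 exceeded the next library 1.76-fold for Hsp90aa1, 1.5-fold for Hsph1, 1.31-fold for Hspb6, 1.3-fold for Hspa4l and 1.22-fold for Hspb1. The summed level of all members was 7779, 7115 and 7113 CPM in TRa_mKO and 8380, 7610 and 7237 CPM in WT, overlapping. WT replicate 1 also had the highest sum of the 5 blood markers, though TRa_mKO replicate 3 was higher in Alas2 and Hbb-bt. The sum was 1763 CPM in WT replicate 1, 458 to 590 CPM in the other WT libraries and 710 to 1621 CPM in TRa_mKO. Within WT, replicate 1 was highest in slow-fibre markers as well (2517 CPM, against 1106 and 1126 CPM). It was not highest in immediate-early genes, the sum of Fos, Jun, Egr1 and related genes (170 CPM, against 278 and 130 CPM). Endothelial markers were highest there too (1059 CPM, against 857 and 962 CPM in the other WT libraries and 625 to 866 CPM in TRa_mKO). Nerve and Schwann cell markers summed to 1238 CPM there, 1201 CPM in WT replicate 3, 301 CPM in WT replicate 2 and 475 to 654 CPM in TRa_mKO. The part of blood, slow fibres, vessels or nerve in these values was not tested.

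**Figure D4:**
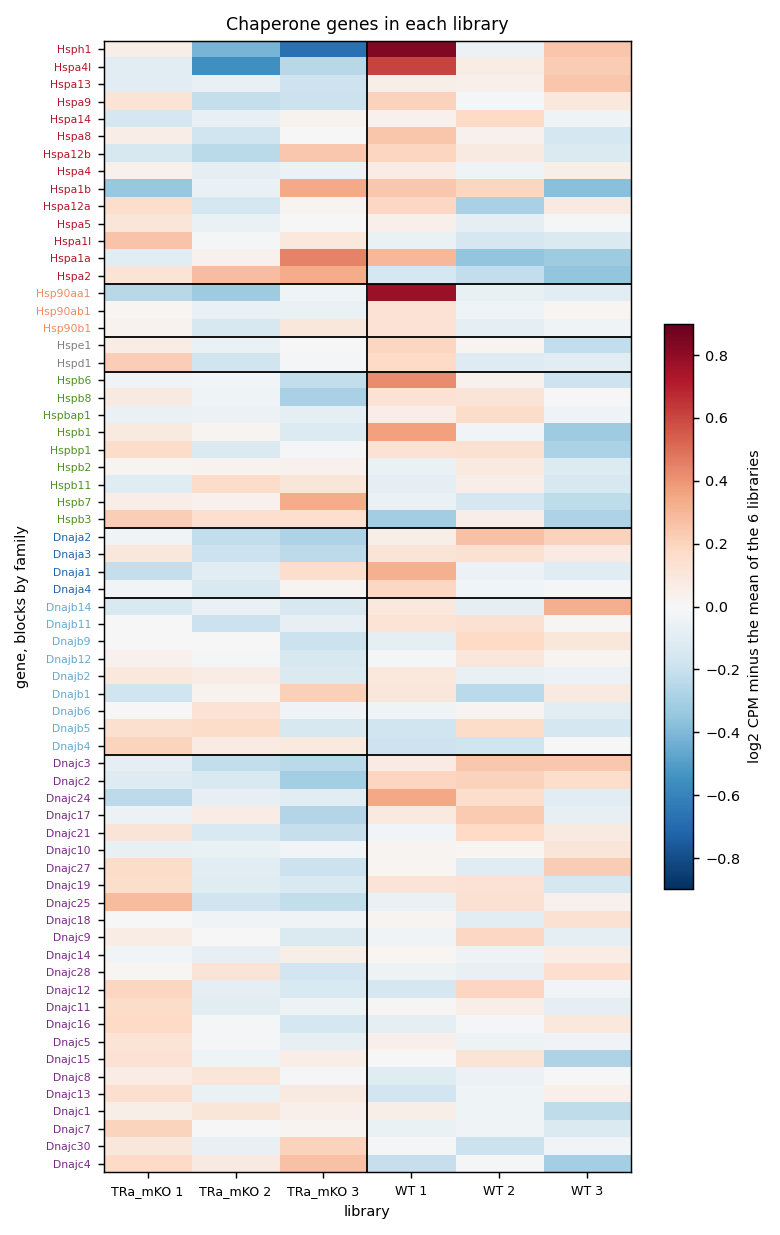
Log2 CPM of each member minus its mean over the 6 libraries, TRa_mKO libraries on the left and WT on the right, in blocks by family. The WT 1 column holds the strongest reds, in Hsph1, Hspa4l and Hsp90aa1, while most cells stay pale.

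Promoters were searched because several of the members named above are classical heat shock factor targets. The heat shock element was written as GAANNTTCNNGAA or TTCNNGAANNTTC, which are each other's reverse complement, so that both strands were covered. RefSeq promoters of GRCm38.p6, from 250 bases before to 50 after a transcript start, were matched for 53 members, and 4 of these (7.55%) held it, against 0.557% of the 10422 genes tested that had a promoter. Members with no entry were Dnajc11, Dnajc12, Dnajc18, Dnajc2, Dnajc30, Dnajc5, Hsp90aa1, Hsp90ab1, Hspa13, Hspa8, Hspa9 and Hspb2. Hspa1a, Hspa1b, Hspb1 and Dnajb1 had an entry and no match to this strict pattern. The lack of a match does not show that a gene has no heat shock element. The matches are shown 5′ to 3′ on the strand of the gene, with the GAA and TTC units in capitals. The head-to-head pair Hspd1 and Hspe1 shares 1 stretch with 2 overlapping matches (chr1:55088054-55088081), whose first unit begins 144 bases before the Hspd1 start on the minus strand and 89 bases before the Hspe1 start on the plus strand.
Hspd1: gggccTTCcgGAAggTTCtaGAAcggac
Hspe1: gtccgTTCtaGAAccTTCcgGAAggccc
Hsph1: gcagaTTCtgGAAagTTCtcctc
Dnajb6: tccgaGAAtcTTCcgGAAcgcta
Chordc1: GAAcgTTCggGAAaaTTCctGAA

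The Hsph1 match (chr5:149636283-149636305, minus strand) begins 15 bases after 1 annotated start and 36 after another, and the Dnajb6 match (chr5:29735847-29735869, plus strand) begins 46 or 127 bases before its annotated starts, each counted from the first unit. Chordc1, no member but the HSP90 co-chaperone described next, has 3 overlapping matches in a row of 5 units at its start (chr9:18292263-18292285, plus strand). These genes did not share an order between genotypes: Chordc1 passed as lower, Hsph1 had a log2 fold change of -0.70 without passing, and Dnajb6 and Hspd1 had 0.08 and 0.03. A match describes letters in this window and no binding.

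Other genes of the pathway were read from 7 lists. Of 16 HSP90 co-chaperones and myosin-folding partners, 0 were higher and 1 was lower. This was Chordc1, a co-chaperone that mammalian cells induce on heat shock, at 71, 66.1 and 60.3 CPM in TRa_mKO and 98.5, 85 and 87.7 CPM in WT. The genotypes did not overlap, and it fell by 0.46 on the log2 scale (SE 0.10, interval -0.67 to -0.24, adjusted p = 0.0287), with WT 1.37-fold higher. The call held without TRa_mKO replicate 1 (adjusted p = 0.023), DESeq2 (0.00394) and limma-voom (0.0329) made it too, and it ended without each other library (0.0513 to 0.107) and without the haemoglobin-rich libraries (0.194). Cdc37, which brings kinases to HSP90, measured 88.9, 84.9 and 90 CPM in TRa_mKO and 77.2, 76.7 and 73 CPM in WT, apart (adjusted p = 0.179). Fkbp5, a steroid receptor co-chaperone, measured 25.4 ± 9.29 CPM in TRa_mKO and 40.9 ± 10.6 CPM in WT, overlapping (adjusted p = 0.333).

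Of 18 HSP70 co-chaperones and exchange factors edgeR called 0, with 2 at an unadjusted p under 0.05, and DESeq2 and limma-voom 0. Bag5, an exchange factor, measured 23.1, 21.2 and 25 CPM in TRa_mKO and 31.7, 29.6 and 28.1 CPM in WT, apart (log2 fold change -0.36, SE 0.10, adjusted p = 0.068). Sec63, the J protein of the reticulum's translocon, measured 56.5 ± 3.85 CPM in TRa_mKO and 66.3 ± 1.9 CPM in WT (adjusted p = 0.179). Of 5 tested heat shock factors and regulators none passed, with 0 calls by DESeq2 or limma-voom. At an unadjusted p under 0.05 there were 2, both lower (40%, against 17.9% of genes). Of all 5, 2 had log2 fold changes above 0 and 3 below, with a median of -0.08. The summed level of the 8 listed genes with values was 217 ± 2.8 CPM in TRa_mKO and 212 ± 6.89 CPM in WT, overlapping. Hsf4 measured 5.57, 5.49 and 5.05 CPM in TRa_mKO and 7.26, 7.13 and 7 CPM in WT, without overlap (log2 fold change -0.41, adjusted p = 0.149). Hsbp1l1, which resembles the heat shock factor binding protein Hsbp1, was scarce, at 1.03, 1.37 and 1.59 CPM in TRa_mKO and 3.14, 1.78 and 2.11 CPM in WT, again without overlap (log2 fold change -0.81, SE 0.30, adjusted p = 0.189).

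The lists of the TRiC chaperonin and prefoldin (14 tested), of crystallins and their muscle partners (7), of reticulum stress (19) and of mitochondrial proteases (14) each had 0 calls by edgeR, DESeq2 and limma-voom. At an unadjusted p under 0.05 they had 0, 0, 1 and 3 genes, and their median log2 fold changes lay between -0.03 and 0.09, against -0.000316 for all genes tested. Clpx, the matrix unfoldase, measured 130, 141 and 118 CPM in TRa_mKO and 95.9, 107 and 111 CPM in WT, apart (log2 fold change 0.31, adjusted p = 0.128), and Oma1, a stress protease of the inner membrane, 36.7 ± 2.79 CPM in TRa_mKO and 30.4 ± 2.35 CPM in WT (adjusted p = 0.157). In the reticulum list Creld2 measured 9.15 ± 0.936 CPM in TRa_mKO and 7.4 ± 0.166 CPM in WT (adjusted p = 0.267), and Sdf2l1 2.64 ± 0.122 CPM in TRa_mKO and 3.53 ± 0.377 CPM in WT (adjusted p = 0.292). The TRiC subunits Cct2 and Cct8 had log2 fold changes of 0.14 and -0.16, and the ubiquilin Ubqln2 and the intermediate filament gene Des 0.13 and 0.14, with adjusted p of 0.383 to 0.563. The 29 members not covered by the rule for named genes ran from -0.28 (Dnajc24) to 0.16 (Dnajc30), with adjusted p of 0.458 to 0.987.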

How the data were processed

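Polyadenylated RNA of 6 gastrocnemius muscles was sequenced from stranded libraries, per the labels' protocols. The authors deposited estimated counts for each gene, without normalization, under columns headed Read Count; in each library 9.65% to 10% of the values were not whole. FastQC 0.11.9, MultiQC 1.12, Trimmomatic 0.39, featureCounts and the genome build names mm10, GRCm38.p6 and GRCm39 appear in the submitters' processing notes without their roles. No source used here gives the aligner, the annotation or the strand setting of the counting.

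Counts were rounded to whole numbers, filtered with filterByExpr (minimum count 10), scaled by TMM and tested over 13118 genes with the two-sided robust quasi-likelihood test of edgeR 4.0.16 in R 4.3.3, with genotype as the only factor. A Benjamini-Hochberg adjusted p below 0.05 over all genes counted as a pass. The SE was derived from the moderated F statistic. The comparison was also run on simulated counts for these 13118 genes, in 5 runs with 200 genes changed 1.5-fold to 4-fold in each. It recovered 55.2% of genes changed 1.5-fold and 86% of those changed 2-fold, and 4.04% of its calls were false. These rates describe the simulated counts, and recovery of smaller differences, such as the 1.29-fold of Dnajc3 and Dnajc2, was not tested.

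Shared reads, seen as fractional counts, affected 10 members (Hspa1a, Hspa1b, Hspa1l, Hspa5, Hspb2, Hspb11, Dnajc1, Dnajc7, Dnajc14 and Dnajc30), whose values are uncertain. In RefSeq GRCm38.p6, which held all 65 identifiers, 13 members overlap another gene with values, among them Hspb6, Hspd1, Hspe1, Dnajb4 and Dnajc19; reads of such pairs may not be told apart. Lengths came from GENCODE vM21, matched for 65 members.

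Members and lists were chosen with earlier results of these data known. Named were members that passed, up to 4 per family with the smallest p, 22 fixed members, and in each of 7 pathway lists the genes that passed and up to 2 more; Hspa14, Hspb2 and the genes named for their promoter or overlap stand outside this rule and were chosen after their values were seen. Alternatives were DESeq2 size factors, library size alone, no filter, 1 CPM in 3 libraries, DESeq2 1.42.0, limma-voom (limma 3.58.1), removal of the 10 most abundant genes or of genes with shared reads, a block for replicate number, omission of each library, thresholds of 0.1 and 0.01, and omission of both haemoglobin-rich libraries.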

Additional observations from a re-analysis of the deposited data

How the results depend on the processing

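The 2 member calls, both in the DnaJ C family, were 0 without the haemoglobin-rich libraries, with limma-voom and at an adjusted p below 0.01. Leaving out 1 library gave 0 to 2 changed members, 0 to 1 higher and 0 to 1 lower, with 0 to 1 in the DnaJ C, 0 to 1 in the HSP70 and HSP110 and 0 to 1 in the small HSP family, and 0 to 1 HSP90 co-chaperones. A threshold of 0.1 gave 4 members, of which 1 was higher and 2 were of the HSP70 and HSP110 family, and 1 HSP70 co-chaperone. DESeq2 called 1 member each of the DnaJ A, DnaJ C and HSP70 families, library size alone 1 of DnaJ A, and no filter 1 of HSP70. The HSP90 co-chaperone call went to 0 without the haemoglobin-rich libraries and at 0.01. The number of all genes changed, 547, became 267 without the haemoglobin-rich libraries, 209 to 595 with 1 library left out, 934 at 0.1 and 173 at 0.01.

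Deviations of same-numbered libraries from their genotype means had correlations of -0.176, 0.000321 and -0.00565. Differently numbered libraries gave -0.172 to 0.195. With 3 libraries per genotype this check cannot exclude a pairing, and the main test used none. With the replicate number as a block, the number of all genes changed was 357, with 2 of the HSP70 and HSP110 family (Hsph1 and Hspa4l), 0 of DnaJ C and 0 HSP90 co-chaperones.

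Signs turned in the following named members, none of which had passed. Leaving out 1 library gave log2 fold changes of -0.22 to 0.03 for Dnaja1, -0.06 to 0.14 for Dnajb1, -0.03 to 0.07 for Dnajc5, -0.06 to 0.06 for Hsp90b1, -0.24 to 0.12 for Hspa1b, -0.02 to 0.06 for Hspa5, -0.19 to 0.01 for Hspa8, -0.19 to 0.16 for Hspb1, -0.08 to 0.12 for Hspd1 and -0.11 to 0.09 for Hspe1. Library size alone gave -0.01 for Dnajb1 and -0.03 for Dnajc5, Hspa5 and Hspd1. Without the haemoglobin-rich libraries the values were -0.01 for Dnajb1, 0.01 for Hsp90b1, 0.00 for Hspa8, 0.22 for Hspb1, 0.04 for Hspb6 and 0.10 for Hspe1, which was 0.00 with limma-voom and with the replicate block. The cause of these shifts was not tested. Requiring a mean raw count of 50 kept 65 members. With 2 alternating units in place of 3, 28.3% of members had a promoter match, against 14% of genes tested. For 16 members, Hspa1a and Hspa1b among them, the interval reached beyond 1.41-fold.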
